A study of Sus scrofa with 599 samples.

Results

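The regions described here are the H3K27ac enhancer regions of 4 adipose tissues (ATs) in a single subgroup of obese pigs. They are all regions in the 4 tables that ROSE, a program that stitches nearby peaks into enhancer regions and ranks them, gave for subgroup 5 of the weight-gain (WG) pigs: 25819 regions in the greater omentum (GOM), 23198 in mesenteric adipose (MAD), 18143 in retroperitoneal adipose (RAD) and 19753 in the upper layer of backfat (ULB). Together these are 86913 of the 401610 regions in the 18 ROSE tables of the series. GOM, MAD and RAD are visceral ATs, and ULB is subcutaneous. The animals were adult females of the Bama breed, a miniature pig from China, 2 years old at the start, and every WG pig ate a high-fat diet for 22 weeks. The authors divided the WG samples into subgroups by K-means clustering of cell-type proportions estimated from expression, so a subgroup is a class of samples with a like estimated cell makeup and not a treatment. Each table pools the reads of its libraries, so that a depot is 1 sample, with no replicate error and no test on the regions. Pooled were 7 H3K27ac and 4 input libraries for GOM, 10 and 7 for MAD, 11 and 6 for RAD, and 4 and 1 for ULB. Only 1 replicate number of the labels occurs in the H3K27ac pools of all 4 depots, so depot and the libraries pooled cannot be told apart.

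H3K27ac is an acetyl mark on the tail of histone H3 that is laid down at active promoters and active enhancers. Enhancers are stretches of DNA that bind transcription factors and raise the transcription of genes on the same chromosome, and long clusters of them with a high signal, called super-enhancers by ROSE, often lie beside the genes that set a cell's identity. In white fat the depots keep the positional code of the embryo. The HOX clusters differ between depots, the T-box gene TBX15 and the homeobox gene EN1 are known from subcutaneous fat, and WT1, GATA factors and BNC1 belong to the mesothelium and the visceral mesoderm.

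A region was taken as found in another depot when it overlapped a region of that depot's table by at least 1 bp. A region found in no other of the 4 tables is called an own region of its depot below. The rank is that of ROSE, by H3K27ac minus input signal over the whole region, with rank 1 as the highest. A gene was near a region when its body lay within 10 kb. All coordinates are on Sscrofa11.1.

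The central 300 bases of 6 own regions are printed here. They are the highest-ranked own region of each depot, and the own regions beside ALX1 in RAD and ZIC1 in ULB. Of the genes near own regions, ALX1 and ZIC1 had the strongest depot contrast in expression. Whether the sequence has a part in the depot differences was not tested. Capitals mark GGAATG (the TEAD motif, CATTCC on the other strand) and TAATTA (the core of many homeodomain motifs), read on both strands, and the sequence is the plus strand of the RefSeq copy of Sscrofa11.1. Of 10 short motifs searched, no other occurs in these 6 windows.
GOM, beside BNC1, chr7:51621351-51621650: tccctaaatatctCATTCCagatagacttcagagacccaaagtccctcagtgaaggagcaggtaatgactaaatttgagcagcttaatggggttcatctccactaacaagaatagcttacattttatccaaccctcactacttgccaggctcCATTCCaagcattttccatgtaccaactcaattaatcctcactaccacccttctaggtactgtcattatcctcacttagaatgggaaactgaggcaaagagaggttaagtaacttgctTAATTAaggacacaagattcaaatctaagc
MAD, in NUFIP2, chr12:45504051-45504350: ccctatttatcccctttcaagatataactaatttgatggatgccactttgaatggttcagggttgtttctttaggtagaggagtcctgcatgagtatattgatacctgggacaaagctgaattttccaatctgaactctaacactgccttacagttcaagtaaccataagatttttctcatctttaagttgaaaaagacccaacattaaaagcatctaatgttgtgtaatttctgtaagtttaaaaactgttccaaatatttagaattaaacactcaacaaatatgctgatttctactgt
RAD, in DDX17, chr5:9486651-9486950: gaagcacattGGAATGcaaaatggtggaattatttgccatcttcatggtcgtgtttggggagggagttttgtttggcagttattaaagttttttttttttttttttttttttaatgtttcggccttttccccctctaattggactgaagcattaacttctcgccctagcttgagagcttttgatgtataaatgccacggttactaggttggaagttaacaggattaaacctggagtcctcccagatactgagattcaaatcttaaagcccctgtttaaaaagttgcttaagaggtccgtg
ULB, at the start of the assembled chromosome 8, chr8:7951-8250: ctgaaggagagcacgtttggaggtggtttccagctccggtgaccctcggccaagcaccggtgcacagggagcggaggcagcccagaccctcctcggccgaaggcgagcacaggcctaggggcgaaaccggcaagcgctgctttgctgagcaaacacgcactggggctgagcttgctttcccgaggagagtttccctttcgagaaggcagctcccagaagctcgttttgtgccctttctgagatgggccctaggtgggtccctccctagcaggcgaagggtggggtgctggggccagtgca
RAD, beside ALX1, chr5:96791151-96791450: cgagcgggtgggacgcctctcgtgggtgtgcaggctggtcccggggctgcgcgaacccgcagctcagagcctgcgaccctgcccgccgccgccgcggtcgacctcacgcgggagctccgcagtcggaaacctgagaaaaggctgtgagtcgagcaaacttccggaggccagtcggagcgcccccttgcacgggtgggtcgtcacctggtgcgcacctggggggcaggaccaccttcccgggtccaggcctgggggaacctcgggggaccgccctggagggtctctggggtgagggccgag
ULB, beside ZIC1, chr13:87757351-87757650: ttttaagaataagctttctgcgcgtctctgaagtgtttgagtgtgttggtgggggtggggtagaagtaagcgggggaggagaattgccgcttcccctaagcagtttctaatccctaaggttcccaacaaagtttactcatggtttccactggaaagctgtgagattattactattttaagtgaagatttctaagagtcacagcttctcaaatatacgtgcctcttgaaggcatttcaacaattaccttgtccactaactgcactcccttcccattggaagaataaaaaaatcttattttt
The windows of MAD and RAD lay in introns of NUFIP2 and DDX17, and those of GOM, ALX1 and ZIC1 in introns of long non-coding RNA genes. The ALX1 window was 72.3% G and C with 7% of its bases in annotated repeats, while 69.3% of the bases of the ULB window on chromosome 8 were repeats. The letters are a description of the windows and not a record of bound factors.

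Nearly all strong regions were shared. Regions found in all 4 depots numbered 10947 of GOM (42.4%), 10764 of MAD (46.4%), 10237 of RAD (56.4%) and 11338 of ULB (57.4%). For GOM these shared regions held 75.6% of the net signal (H3K27ac minus input, summed over regions), for MAD 77.9%, for RAD 86.6% and for ULB 79.3%. GOM had 4657 own regions (18%), MAD 1973 (8.51%), RAD 1090 (6.01%) and ULB 2003 (10.1%), which held 1.11% to 3.08% of the net signal. GOM had the longest table and the most own regions. With the 18143 highest-ranked regions of each table instead, GOM had 2147 own regions, MAD 1022, RAD 2154 and ULB 1836, so that GOM and RAD came out alike and RAD no longer had the lowest count.

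Own regions were short and weak. Their median length was 3.2 to 3.6 kb, against 10.0 to 18.8 kb for regions of all 4 depots. The median ratio of H3K27ac to input was 1.42 in own regions of GOM and 1.69 in regions of all 4 depots, and the pair of values was 1.52 and 1.97 for MAD, 1.41 and 1.75 for RAD, and 1.43 and 1.57 for ULB. The median own region ranked at 78.3% of the way down the table for GOM, 85.1% for MAD, 87.7% for RAD and 82.9% for ULB. Among the highest 10% of each table by rank, own regions made up 0.232% of GOM, 0% of MAD, 0.0551% of RAD and 0.101% of ULB. Among the lowest 10% they made up 44.7%, 29.1%, 25.8% and 32.8%. A long region has more room to overlap another and also a higher rank, and the median length went from 51.8 to 66.4 kb among the highest 10% to 2.4 to 3 kb among the lowest 10%.

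**Figure D1:**
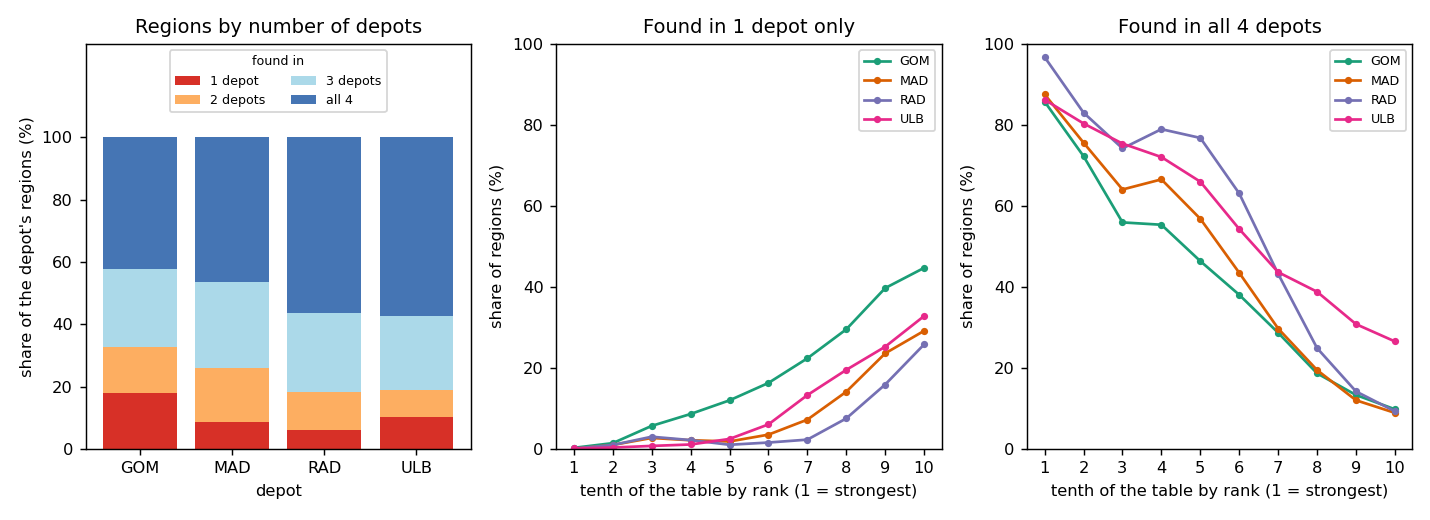
Left, the percent of the regions of each depot's table found in 1, 2, 3 or all 4 depots of subgroup 5 (stacked bars from 0, each depot 1 pooled sample). Middle and right, the percent of own regions and of regions of all 4 depots in each 10% of the table by ROSE rank: own regions rise from 0.232% or less among the highest 10% to 25.8% or more among the lowest 10%, and regions of all 4 depots fall from 85.7% or more to 26.5% or less.

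The 4 tables merged into 26297 loci, of which 8562 (32.6%) held a region of every depot. Of the loci of 3 depots, those of the visceral ATs (GOM, MAD and RAD) were the most common with 2119 (8.06%), followed by GOM, MAD and ULB with 1240 (4.72%). GOM and MAD shared 1746 loci with no other depot (6.64%), MAD and RAD 791, and RAD and ULB 244. Of the regions of RAD, 85.4% were found in MAD, 82.6% in GOM and 64.2% in ULB, and of the regions of ULB 81.9% were found in MAD, 80.7% in GOM and 65.9% in RAD. MAD held 75.2% of the GOM regions, RAD 59.6% and ULB 56.7%, and of the MAD regions GOM held 82.5%, RAD 67.2% and ULB 62.2%.

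Over the 8562 shared loci the ranks of pairs of depots had a Spearman rho of 0.695 (GOM and RAD) to 0.811 (GOM and MAD). Loci share the genome and their lengths, and the called length alone gave rho of 0.726 to 0.841. Ranked by net signal per bp, rho lay between 0.476 (GOM and ULB) and 0.746 (MAD and RAD), and the 3 pairs with ULB gave 0.476 to 0.527 against 0.655 to 0.746 for the pairs of visceral ATs. By H3K27ac signal per bp, which holds the background that the input measures, 0.128% to 3.77% of loci were more than 2-fold higher in either depot of a pair. By net signal per bp, over the 8546 to 8559 loci above 0 in both depots, the shares were 2.67% to 42.1%, the most being the 3598 loci higher in MAD than in ULB, a pair whose median log2 ratio was 0.85. Past the median ratio of each pair the shares were 6.69% to 15.3%.

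The 10 shared loci with the lowest sums of ranks are named here. The locus of ZMIZ1, PPIF and ZCCHC24 (chr14:80887201-81789800; ZMIZ1 codes for a transcriptional co-activator) had the ranks 8, 1, 2 and 5 for GOM, MAD, RAD and ULB. The locus of RXRA and COL5A1 (chr1:273691201-274094000) ranked 4, 10, 4 and 13 in the same order; RXRA is the nuclear receptor that pairs with PPARG, and COL5A1 is a fibrillar collagen. THADA and ZFP36L2 (chr3:96969601-97558800) ranked 12, 21, 1 and 1, and SIK1 with its neighbours U2AF1, CRYAA, HSF2BP and RRP1B (chr13:206260201-206620400; SIK1 is a kinase of the cAMP response) ranked 7, 7, 14 and 10. WNT7B (chr5:3344601-3515600; a Wnt ligand) ranked 14, 15, 6 and 20, although its median TPM (RNA abundance scaled to transcript length and library size) was 0.134 in GOM and 0 in the other ATs. The others of the 10 lowest sums were GRK5 and RGS10 (chr14:129104201-129427400; 3, 33, 17 and 37), IQCA1 and the chemokine receptor gene ACKR3 (chr15:136317401-136787200; 24, 17, 23 and 30), DAB2IP (chr1:261504001-261745200; 60, 13, 8 and 16), PLCG2 and CMIP (chr6:6526401-6895400; 6, 11, 43 and 41) and METRNL and B3GNTL1 (chr12:131601-267200; 15, 92, 7 and 15). The ratio of H3K27ac to input was lowest in ULB at all 10 loci, at 1.56 to 2.39. At ZMIZ1 it was 2.26, 2.76, 2.37 and 1.72 for GOM, MAD, RAD and ULB.

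ROSE marked 1752 regions of GOM (6.79%) as super-enhancers, 1404 of MAD (6.05%), 912 of RAD (5.03%) and 708 of ULB (3.58%). Super-enhancers in all 4 depots were 376 of those of GOM (21.5%), 377 of MAD (26.9%), 368 of RAD (40.4%) and 368 of ULB (52.0%). With the 708 highest-ranked regions of each table the shares were close: 32.2% for GOM, 31.5% for MAD, 30.9% for RAD and 31.78% for ULB. Being a super-enhancer in a single depot was much more common than lying there alone. In GOM 548 super-enhancers (31.3%) were super-enhancers in no other depot, but only 4 overlapped no region at all of the other 3, and ULB had 2 of that kind and MAD and RAD had 0.

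The own regions were checked in the 14 other ROSE tables of the series. These come from pigs on a normal diet (NC), other WG subgroups and pigs after weight loss (WL). The WL pigs ate the high-fat diet for 22 weeks and were then fed a restricted diet for 12 weeks. Of the own regions of GOM, 63.7% to 71.2% were found in each of the 4 other GOM tables, and 7.90% to 29.7% in each of 10 tables from other ATs. The ranges did not overlap. In MAD they did: 28.5% to 64.4% in other MAD tables and 15.3% to 49.7% in those of other ATs. For RAD the values were 34.6% to 47.5% in the other RAD tables and 10.6% to 51.1% in those of other ATs, and for ULB 17.3% to 24.8% and 5.29% to 22.1%. Regions of all 4 depots were found in 85.1% to 98.5% of cases.

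Of the own regions of GOM, 2028 (43.5%) were found in every other GOM table, and 634 of these in no table of another AT. MAD had 172 (8.72%) and 4 such regions, RAD 121 of 1090 and 3, and ULB 197 (9.84%) and 30. Of the own regions of ULB, 1301 (65.0%) were found in no other ULB table and 746 (37.2%) in none of the 14, against 232 (4.98%) in none of the 14 for GOM, 136 (6.89%) for MAD and 61 (5.60%) for RAD. The ULB table had the fewest libraries, with a single input library, and the part of this in its low recurrence was not tested.

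**Figure D2:**
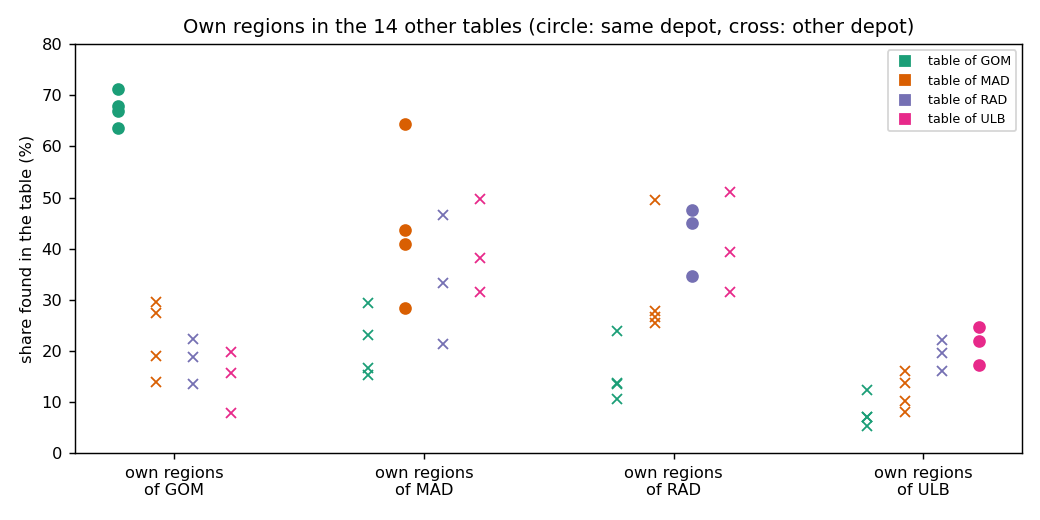
Percent of the own regions of each depot of subgroup 5 that were found in each of the 14 other ROSE tables (1 point for each table, circles for the same depot, crosses for other depots). The circles of GOM, at 63.7% to 71.2%, lie above all its crosses, while circles and crosses overlap in MAD, RAD and ULB.

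Each of the 5 highest-ranked own regions of GOM lay at a named gene, and the first 4 were super-enhancers. The first covered BNC1, the gene of the zinc finger protein basonuclin, at chr7:51554601-51688400 (133.8 kb), with rank 461 and a ratio of H3K27ac to input of 1.96. In the other GOM tables it overlapped regions of rank 134 to 1467. In MAD tables outside subgroup 5 it overlapped regions of rank 4647 (NC), 22753 (WG subgroup 4) and 13204 (WL), and none in any RAD or ULB table. The next were a 181.2-kb region of WWC1 and TENM2 (chr16:55439601-55620800, rank 561; WWC1 codes for a scaffold protein of Hippo signalling), a 126.4-kb region at LRP2 (chr15:75633601-75760000, rank 1181), the endocytic receptor megalin, and an 89.0-kb region inside ANKRD6 (chr1:57470801-57559800, rank 1606), a regulator of Wnt signalling. SV2B, the gene of a vesicle glycoprotein, followed at rank 2277 and was not a super-enhancer (chr7:87697601-87763000).

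The genes at these regions were also high in GOM RNA. BNC1 had a median of 8.33 TPM over 45 GOM libraries (1.21 to 24.9), 0.110 in MAD, and 0 in RAD and ULB, where 21 of 39 and 23 of 38 libraries were listed at 0. Every GOM library lay above all MAD and RAD libraries, and a single ULB library reached 2.41 TPM. WWC1 had medians of 8.89, 0.706, 0.611 and 0.690 TPM in GOM, MAD, RAD and ULB, and was higher in GOM by a log2 fold change of 3.40 (SE 0.14, adjusted p = 1.26e-53, edgeR's quasi-likelihood test with Benjamini-Hochberg adjustment, each AT against the mean of the other 3). SV2B (3.28, 0.312, 0.207 and 0.317 TPM) was higher by 3.58 (SE 0.13, adjusted p = 3.50e-59, edgeR). ANKRD6 (7.82, 1.96, 1.55 and 1.06 TPM) was higher by 2.20 (SE 0.10, adjusted p = 2.12e-47, edgeR). LRP2 (20.2, 0.914, 0.233 and 0.331 TPM) was higher by 2.83 (SE 0.36, adjusted p = 9.78e-12, edgeR), with the widest spread, since a MAD library reached 240 TPM. TENM2 was not tested. The labels of the RNA-seq and Hi-C libraries do not give the subgroup, so these comparisons use all WG libraries, 45, 36, 39 and 38 for RNA in GOM, MAD, RAD and ULB. Since these are bulk tissues, fewer cells of a type and less RNA per cell cannot be told apart.

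A gene was called with adjusted p below 0.05 and more than 1.5-fold change. Over all 13906 tested genes, 6.26% were called higher and 3.77% lower in GOM, 3.08% and 2.37% in MAD, 1.81% and 3.73% in RAD, and 5.47% and 7.21% in ULB. Mesothelial markers were high in GOM as well. BNC1 and KRT8 are both markers and genes near own regions of GOM, so the 2 sets are not independent. BNC1 and WT1 are also on the visceral lineage list below. Of 11 listed markers 6 had TPM values, and 4 of the 5 tested (KRT8, UPK1B, WT1 and BNC1) were called higher in GOM, while KRT18 was not. Their summed level was 63.0 to 836 TPM in GOM (median 219), 6.70 to 105 in MAD (16.2), 4.25 to 183 in RAD (12.1) and 1.59 to 132 in ULB (12.6). CALB2 had a median of 0.0436 TPM in GOM and 0 in the other ATs. The part of mesothelial cells in the own regions of GOM was not tested. The labelled tissue showed in the adipocyte markers, whose summed level was 5202 to 33392 TPM across the libraries, with none of the 10 tested markers called in any AT.

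The highest-ranked own regions of MAD and RAD were of another kind. In MAD they were 9- to 13.2-kb regions at NUFIP2 (chr12:45497601-45510800, rank 2637), CDKL3 and UBE2B (chr2:136647201-136656200, rank 2821), and CEP95, DDX5 and POLG2 (chr12:14567801-14577400, rank 3008), with CREM (chr10:57875001-57886600, rank 2981) and PDE7A (chr4:68776401-68789200, rank 3240). In RAD they lay at DMC1 and DDX17 (chr5:9479801-9493800, rank 1726), ZNF236 (chr1:147776001-147784200, rank 1976), NDUFB6, TOPORS and DDX58 (chr10:33861001-33897800, rank 2128), MEX3C (chr1:100689601-100702200, rank 2194) and ANKRD17 (chr8:69525001-69533800, rank 2349). Many of these genes are expressed in most cells, such as the RNA helicase genes DDX5 and DDX17 and the ubiquitin-conjugating enzyme gene UBE2B. Their ratios of H3K27ac to input were high, 4.75 to 6.39 in MAD and 1.99 to 5.89 in RAD. All but that of CREM had a transcription start site within 2 kb, and all 10 were found in the NC tables of all 4 depots. NUFIP2 had medians of 116, 119, 118 and 106 TPM in GOM, MAD, RAD and ULB and was not called in MAD (log2 fold change 0.03, SE 0.06, adjusted p = 0.777, edgeR).

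Own regions were also counted by their distance to start sites. For GOM 6.87% of own regions had a transcription start site within 2 kb, for MAD 8.77%, for RAD 13.2% and for ULB 5.19%, against 25.6% to 36.8% of regions of all 4 depots. Among the 100 highest-ranked own regions the share was 61.0% for GOM, 94.0% for MAD, 92.0% for RAD and 30.0% for ULB. Of the 173 own regions of MAD at a start site, 15.6% to 85.5% were found in each table of other ATs, and of the 1800 away from start sites 14.9% to 51.4%. For GOM 45.7% of own regions lay wholly within gene bodies and 46.4% outside genes. The values were 55.1% and 35.7% for MAD, 47.4% and 40.1% for RAD, and 50.9% and 44.1% for ULB. Regions of all 4 depots lay outside genes in 25.5% to 29.3% of cases.

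The highest-ranked own regions of ULB sat where the input was high. The first (chr8:1-16200, rank 291, a super-enhancer; PIGG is 5.24 kb away) had a ratio of H3K27ac to input of 1.05, and the second (chr6:38773801-38781600, rank 630, a super-enhancer) had 1.08. With the third and the fourth (chr7:24600601-24606400, rank 2592; chr11:73603601-73605600, rank 2897) they were among the 9 own regions of ULB with an input per bp above 10 times the median of the table, and own regions of the other depots had 0. Each of these 4 also overlapped a region in the RAD table of WG subgroup 6, of rank 14, 125, 1294 and 3736. Without regions of high input ULB had 1994 own regions in place of 2003. The highest ranks were then UBN1 and GLYR1 (chr3:37547001-37558400, rank 3200), MAP3K10 (chr6:48525801-48539600, rank 3227), RRAGC, MYCBP and GJA9 (chr6:94801801-94810400, rank 3502), PKLR, HCN3, CLK2 and SCAMP3 (chr4:94556401-94565600, rank 3725) and CDK12 and MED1 (chr12:22823801-22833800, rank 4007).

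Of the 5 highest-ranked own regions of ULB away from start sites, 4 lay between genes, 69.7 to 111 kb from the nearest, and 1 inside a gene. The first, chr16:28878001-28895000 (17 kb, rank 5049), lay 98.0 kb from FGF10, the gene of a growth factor of fat and limb development. FGF10 had medians of 0.881, 0.572, 9.79 and 36.7 TPM in GOM, MAD, RAD and ULB, with 11.8 to 114 TPM over the 38 ULB libraries. The GOM and MAD libraries, which reached 2.21 and 2.60 TPM, did not overlap those of ULB, and the RAD libraries, which reached 27.4 TPM, did. FGF10 was higher in ULB by a log2 fold change of 4.33 (SE 0.13, adjusted p = 7.05e-68, edgeR) and in RAD by 2.04 (SE 0.14, adjusted p = 2.70e-29, edgeR). A region at ADRA1A (chr14:10691401-10707200, rank 5703), an adrenergic receptor gene, and one 83.8 kb from CXCL12 (chr14:91408201-91432600, rank 6320), a chemokine gene, had genes that were not called in ULB (log2 fold changes of 0.50 and 0.42). In GOM the regions away from start sites were led by ANKRD6 and SV2B and then MYO5B (chr1:99631401-99725600, rank 2296), MAST4 at 117 kb (chr16:44796401-44855200, rank 2875) and C8H4orf22 (chr8:137254201-137309400, rank 2899). MYO5B, a motor of membrane recycling, was higher in GOM by 2.42 (SE 0.12).

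The HOX clusters, which set position along the body axis, had regions in every depot but at different ranks. HOXA (chr18:45363340-45490306) held super-enhancers in the visceral ATs, with a best rank of 72 in GOM, 169 in MAD and 432 in RAD, while the best region of ULB ranked 4881 and was not a super-enhancer. The regions covered 77.4, 75.6, 73.2 and 24.8 kb of the cluster in GOM, MAD, RAD and ULB. HOXB (chr12:24774953-24960661) had best ranks of 50, 71 and 89, all super-enhancers, and 1209 in ULB, with 110, 88.6, 83.4 and 51.6 kb covered. HOXC (chr5:19141096-19278267) ranked 5323, 1773, 1005 and 1768, with the most covered in RAD (77.0 kb). HOXD (chr15:81883997-82000026) had best ranks of 11232, 7027, 5678 and 1797, with 13.2, 25.8, 21.6 and 33 kb covered. Rank follows length as well as signal, and the ratio of H3K27ac to input in these best HOXD regions was 1.63, 2.84, 3.31 and 2.17, highest in RAD. Of the 8 HOXD genes 5 had their best rank in RAD and 3 in ULB.

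In RNA the HOXB and HOXD genes differed in opposite directions in GOM. Of 7 tested HOXB genes 6 were called higher in GOM and 0 lower, and 6 were called lower in ULB. Of 5 tested HOXD genes 5 were called lower in GOM and 3 in MAD, 4 were called higher in ULB, and RAD had 3 higher and 1 lower. HOXB6 had medians of 21.3, 15.4, 9.39 and 4.24 TPM in GOM, MAD, RAD and ULB, and HOXD8 had 9.70, 14.9, 51.6 and 81.6 TPM. HOXA was mixed: of 7 tested genes, GOM had 1 called higher and 2 lower, MAD 2 and 0, RAD 2 and 1, and ULB 0 and 3. Of 5 tested HOXC genes 3 were called lower in GOM, 2 higher and 2 lower in RAD, and 2 higher in ULB. HOXA9 (0.632, 1.25, 12.1 and 1.23 TPM) was higher in RAD by 3.19 (SE 0.15), and its RAD libraries at 6.47 to 20.1 TPM overlapped only those of MAD, which reached 17.1. Single genes had regions in 1 depot only, HOXD9 and HOXD10 in ULB and HOXD11 and HOXD12 in RAD. HOXD9 (1.23, 1.33, 2.31 and 5.05 TPM) was higher in ULB by 1.55 (SE 0.12).

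Of 14 visceral lineage genes 13, 11, 13 and 11 had a region near them in GOM, MAD, RAD and ULB, but super-enhancers were near 5 in GOM and 0 in the others. The best rank of a gene was in GOM for 7, in RAD for 4, in MAD for 2 and in ULB for 1, and the median best rank of the genes with a region was 5592, 5702, 8223 and 14412 in GOM, MAD, RAD and ULB. GATA5, a cardiac and mesothelial GATA factor, had ranks of 25, 4422, 14239 and 5680 for GOM, MAD, RAD and ULB. WT1, a mesothelial and kidney factor, ranked 608 in GOM, 3159 in MAD and 4192 in RAD and had no region in ULB. GATA6 ranked 670, 1600, 3532 and 14412, and HAND2, a factor of the heart and limb, 1381, 6124, 10774 and 15642. The other 4 GOM tables gave GATA5 ranks of 112 to 743 and WT1 ranks of 43 to 375. In RNA 10 of the 12 tested genes of the list were called higher in GOM and 1 lower, and 10 were called lower in ULB and 0 higher. WT1 had medians of 40.2, 8.85, 7.21 and 0.154 TPM and was higher in GOM by 3.60 (SE 0.20). GATA6 (24.4, 9.85, 6 and 3.19 TPM) was higher by 2.05 (SE 0.09). GATA5 had a median of 8.22 TPM in GOM, 0.116 in MAD and 0 in RAD and ULB. NKX2-3, a gut and spleen factor, had the best rank in MAD (2222), with 7026 in GOM, 8223 in RAD and none in ULB, and its median TPM was 6.97 in MAD, 2.90 in GOM and 0 in RAD and ULB. Other members ranked elsewhere: GATA4 was at 24035 in GOM and 8537 in ULB, TBX18 had no region in GOM and ranked 4925 in RAD, and NR2F1 ranked 4536 in GOM and 2073 in RAD. BARX1, a stomach factor, ranked 10291 to 22676 in the 4 depots, while its median was 6.58 TPM in GOM and at most 0.0336 in the others.

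Of the 12 subcutaneous patterning genes 10, 7, 11 and 8 had a region near them in GOM, MAD, RAD and ULB. The best rank was in ULB for 5, in RAD for 5 and in MAD for 2, and by rank as a share of the table in ULB for 5, in MAD for 3, and in GOM and RAD for 2 each. TBX15, a T-box factor of the trunk, had ranks of 16741, 17119, 7444 and 1028 for GOM, MAD, RAD and ULB. EN1, a homeobox factor of dorsal skin and limb, ranked 24242, 16074, 3166 and 1429. The other 3 ULB tables gave 468 to 911 for TBX15 and 897 to 1305 for EN1. SHOX2, IRX3, PAX3 and SIM1 had no region in ULB, TWIST1 ranked 3869 in RAD and 5889 in ULB, and MEOX2 ranked 2635 in MAD and 6332 in ULB. TWIST2 was a super-enhancer gene in GOM (rank 463) and ULB (393), and ranked 1441 in MAD and 1937 in RAD. Of 7 tested genes of the list 6 were called higher in ULB and 0 lower, and 6 were called lower in GOM. EN1 had medians of 0.258, 0.316, 3.95 and 12.8 TPM and was higher in ULB by 4.09 (SE 0.11). IRX3, the only gene of the list with a region in MAD alone, had its highest median in ULB (11.9 TPM, against 3.58 in MAD) and was not called in MAD (log2 fold change 0.08).

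**Figure D3:**
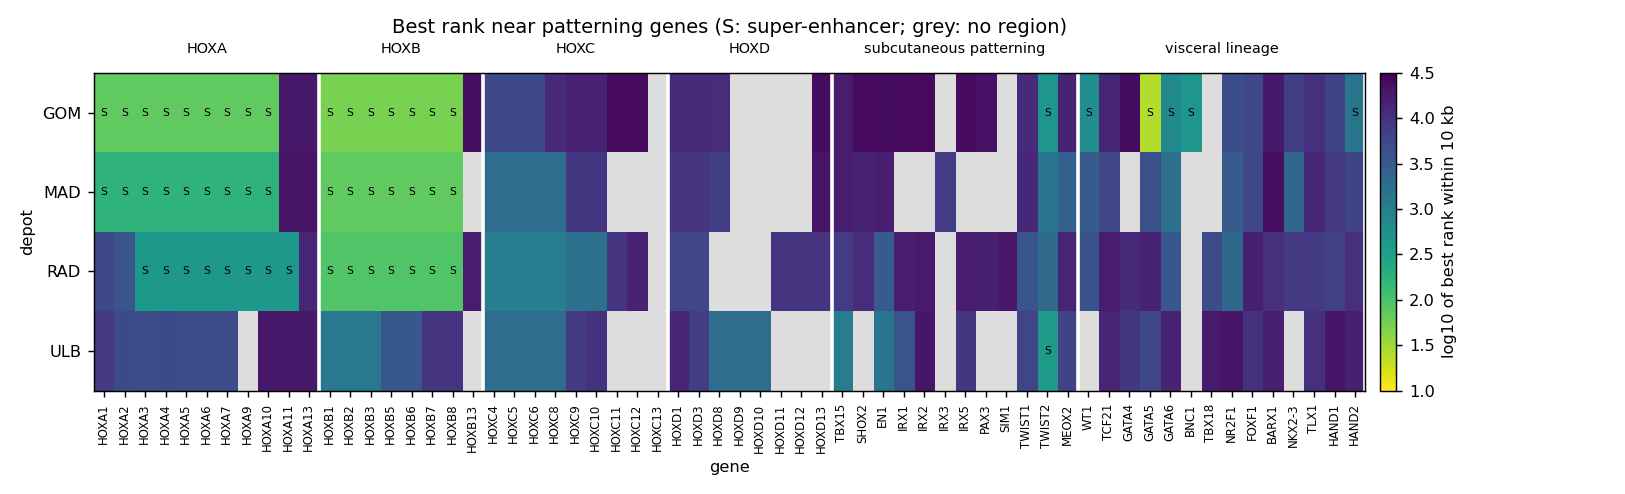
Best ROSE rank (log10, colour) of a region within 10 kb of each gene of the HOX, subcutaneous patterning and visceral lineage lists in the 4 depots of subgroup 5, with S for a super-enhancer and grey where no region was near. HOXA and HOXB genes and 5 visceral lineage genes carry S in GOM, while TBX15 and EN1 have their best ranks in ULB (1028 and 1429).

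Other listed genes with regions in 1 depot only were KLF5, FN1, ACTA1 and SLC12A1 in GOM beside BNC1, and ADRB1, SIM1 and MYH2 in RAD. KLF5, an epithelial and adipogenic factor, had medians of 10.8, 4.19, 1.58 and 2.99 TPM and was higher in GOM by 2.34 (SE 0.17). FN1, the matrix protein fibronectin, had medians of 462, 219, 230 and 243 TPM and was higher in GOM by 1.12 (SE 0.14), with GOM libraries from 21.5 to 2230 TPM that spanned all the others. ADRB1, the beta-adrenergic receptor gene whose signal starts lipolysis, had medians of 2.89, 5.53, 6.66 and 1.96 TPM and was called higher in RAD (log2 fold change 1.09, SE 0.15) and in MAD (0.78, SE 0.16). Of the fat genes themselves, 11 or 12 of 12 adipocyte markers had a region in each depot, and 10, 12, 9 and 8 of 16 adipogenic transcription factor genes had a super-enhancer in GOM, MAD, RAD and ULB. Of 10 placed matrix genes 8, 6, 5 and 5 had one, although 8 of 12 tested were called higher in ULB and 7 lower in GOM.

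Own regions lay within 10 kb of 2643 of 18722 protein-coding genes on autosomes for GOM (14.1%), 1437 for MAD (7.68%), 890 for RAD (4.75%) and 1336 for ULB (7.14%), while 9932 genes (53.0%) had a region of every depot and 3350 (17.9%) of none. Over own regions of all ranks, the genes near them were called higher in the same depot more often than all tested genes, and most were not called. Near own regions of GOM 177 of 1623 tested genes (10.9%) were called higher in GOM, where 6.26% of all tested genes were, and 58 (3.57%) lower, where 3.77% of all were. In MAD 48 of 1076 (4.46%) were called higher, against 3.08%, and 15 (1.39%) lower, against 2.37%. In RAD 17 of 576 (2.95%) were called higher, against 1.81%, and 10 (1.74%) lower, against 3.73%. In ULB 80 of 822 (9.73%) were called higher, against 5.47%, and 56 (6.81%) lower, against 7.21%. Only tested genes matched to RefSeq could be counted near regions. Of the 10515 tested genes so matched, 6.13%, 3.27%, 1.95% and 5.61% were called higher in GOM, MAD, RAD and ULB. The shares called lower were 3.95%, 2.42%, 3.87% and 7.25%. The genes near own regions had a median log2 fold change of 0.00 for GOM, 0.02 for MAD and RAD, and 0.01 for ULB, and that of all tested genes was between -0.01 and 0.00. Genes near regions of all 4 depots stood close to the background, with 6.04%, 2.96%, 1.65% and 5.0% called higher. Near own regions of GOM in the upper 50% of the table by rank, 87 of 397 tested genes (21.9%) were called higher and 5 lower. The same part of the tables gave 6 of 199 for MAD (3.02%), 3 of 165 for RAD (1.82%) and 3 of 61 for ULB (4.92%). These shares stood near the 3.08%, 1.81% and 5.47% of all tested genes, and an excess was seen there in GOM only. With so few calls in MAD, RAD and ULB, an excess in them cannot be told from none. Where the only region within 10 kb of a gene was in GOM, 42 of 242 tested genes were called higher and 9 lower, and the numbers were 6 and 1 of 139 in MAD, 7 and 1 of 90 in RAD, and 9 and 6 of 81 in ULB.

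**Figure D4:**
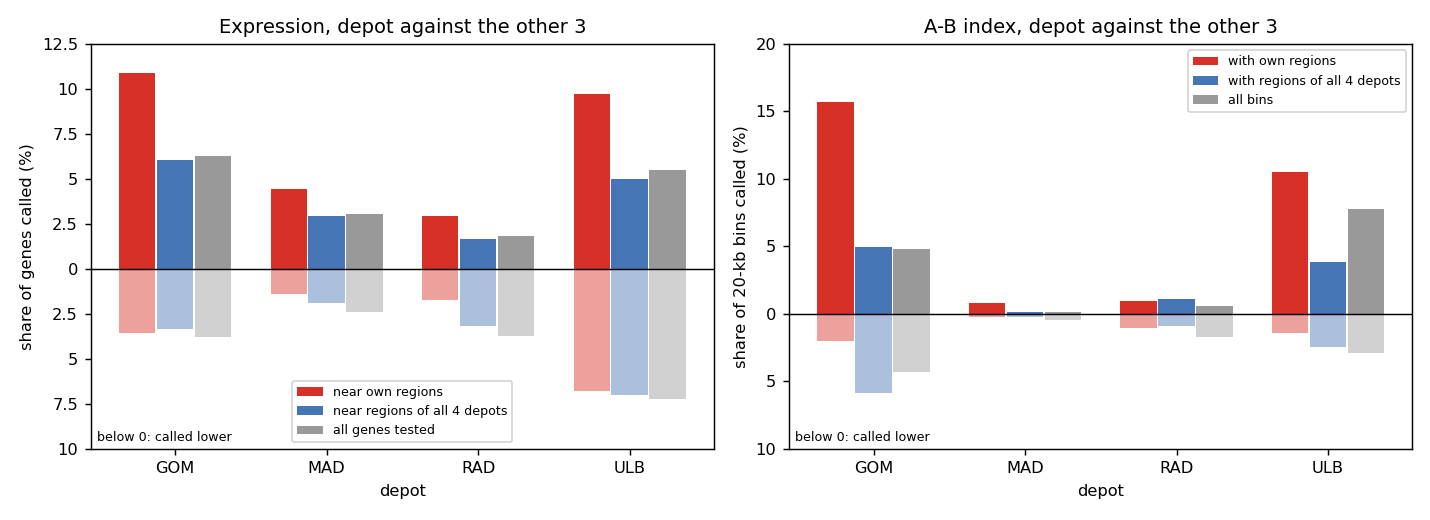
Percent of tested genes (left) and of 20-kb bins of the A-B index (right) called higher (bars above 0) or lower (bars below 0) in each depot against the mean of the other 3, for genes near or bins holding own regions, regions of all 4 depots, and all genes or bins. Own regions stand highest in GOM, at 10.9% of genes and 15.7% of bins called higher, against 6.26% and 4.8% of all.

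Of the genes near own regions of GOM, those with the largest rise besides BNC1 were COL22A1, KRT8, BMP3 and GPM6A. COL22A1, a collagen of tissue junctions, had a median of 2.81 TPM in GOM (0.547 to 9.15) and 0.0363 to 0.0763 in the others. KRT8, an epithelial keratin, had medians of 111, 1.97, 1.64 and 4.42 TPM, and its GOM libraries at 23.5 to 584 TPM did not overlap any of the others, which reached 17.9 at most. BMP3, a secreted ligand of the TGF-beta family, had medians of 11.6, 0.622, 0.26 and 0.09 TPM. GPM6A, a membrane glycoprotein of neurons, had 66.2, 3.88, 0.695 and 1.06 TPM. The log2 fold changes were 5.14 for KRT8 (SE 0.19, adjusted p = 5.96e-59, edgeR), 5.10 for BMP3 (SE 0.19) and 4.95 for GPM6A (SE 0.19). BMP3, like BNC1, had regions in GOM alone (rank 4025), while the own region beside KRT8 was short (chr5:18189001-18192400) and ranked 17601, behind a shared region of rank 3178. EMX2, a homeobox gene (0.299 TPM against 1.44 to 6.23), and MLIP (0.305 against 0.646 to 3.96) were among the largest falls in GOM, with log2 fold changes of -3.36 and -2.08.

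In MAD the genes near own regions with the largest rise were CPAMD8, a protein of the complement family, ADAMTS16, a secreted metalloprotease, and GRB14, an adaptor that inhibits the insulin receptor. CPAMD8 had medians of 0.964, 3.11, 0.127 and 0.0640 TPM in GOM, MAD, RAD and ULB, and was higher in MAD by 3.50 (SE 0.19, adjusted p = 1.16e-37, edgeR). The MAD libraries, at 0.386 to 12.0 TPM, overlapped those of GOM. ADAMTS16 (1.28, 7.14, 2.25 and 0.290 TPM) was higher by 2.70 (SE 0.16) and GRB14 (1.5, 7.96, 1.03 and 2.02 TPM) by 2.27 (SE 0.13). DEPDC7 and DUOX2, an oxidase that makes hydrogen peroxide, were higher by 1.99 and 1.64. The best rank of a region near ADAMTS16 (1758) and GRB14 (11424) was in MAD. Near CPAMD8 it was in ULB (8204, against 10141 in MAD), where the RNA was lowest. Near DEPDC7 it was in GOM (5264, against 10423) and near DUOX2 in RAD (4551, against 5025). SCEL, ITGBL1 and the axon guidance receptor gene ROBO2 were lower in MAD, with log2 fold changes of -1.92, -1.56 and -1.29. Smooth muscle markers moved with MAD: 4 of 6 tested were called higher and 0 lower, and their summed level was 525 to 1992 TPM in MAD (median 1062), 77.5 to 1549 in GOM, 428 to 1268 in RAD and 237 to 1139 in ULB. Their part in the genes near own regions of MAD was not tested.

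In RAD the gene with the largest rise was ALX1, a homeobox gene of the paired class known from the face. It had 2.12 to 10.1 TPM in the 39 RAD libraries (median 4.63), while the medians in the other ATs were 0 and their highest libraries 0.139, 0.360 and 0.149 TPM in GOM, MAD and ULB. The RAD libraries did not overlap any other, and 26 of 45, 23 of 36 and 31 of 38 libraries were listed at 0. The only region near it in subgroup 5 was a 1.40-kb own region of RAD (chr5:96790601-96792000, rank 14067, H3K27ac to input 2.18). The other 3 RAD tables had regions near ALX1 at ranks 4819 (NC), 20113 and 18668 (WL), and no table of another AT had any. RASSF6 (0.646, 0.758, 4.30 and 0.434 TPM) was higher in RAD by 2.48 (SE 0.16), and PTHLH, the gene of the parathyroid hormone-like protein (0.563, 1.59, 3.07 and 1.32 TPM), by 1.84 (SE 0.16). PGR, the progesterone receptor gene (15.4, 23.9, 30.6 and 2.92 TPM), was higher by 1.55 (SE 0.09), and STMN4 by 1.17. STMN2, DSG2 and GRIK5 were lower in RAD, with log2 fold changes of -3.02, -2.38 and -1.51.

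In ULB it was ZIC1, a zinc finger factor of the dorsal neural tube and somites. It had 2.08 to 47.6 TPM in the 38 ULB libraries (median 7.92), and medians of 0 in the other ATs with at most 0.224, 0.279 and 0.363 TPM in GOM, MAD and RAD, where 39 of 45, 34 of 36 and 33 of 39 libraries were listed at 0. The groups did not overlap. Its only region in subgroup 5 was an own region of ULB (chr13:87754401-87760600, rank 8951, H3K27ac to input 1.56). The other ULB tables gave ranks of 1697, 1729 and 7010, and a single table of another AT, that of RAD in WG subgroup 6, held a region, at rank 22524. RIMS3 had a median of 1.79 TPM in ULB and 0.0763 to 0.103 in the others, and was higher by 4.10 (SE 0.14). KERA, a proteoglycan of dense connective tissue (2.30, 1.89, 2.77 and 39.8 TPM), was higher by 4.07 (SE 0.15). NEGR1, a neural adhesion protein (1.36, 0.902, 4.85 and 20.9 TPM), was higher by 3.39 (SE 0.13), and UNC5D, a netrin receptor (0.387, 0.479, 0.540 and 3.77 TPM), by 3.15 (SE 0.15). The best rank of a region near RIMS3 (8935) and NEGR1 (11960) was in ULB. Near KERA it was in GOM (8494, against 13077 in ULB), as it was near UNC5D (14060, against 18550). SLIT1, NOX5 and MYO5B were lower in ULB, with log2 fold changes of -5.12, -1.91 and -1.77.

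**Figure D5:**
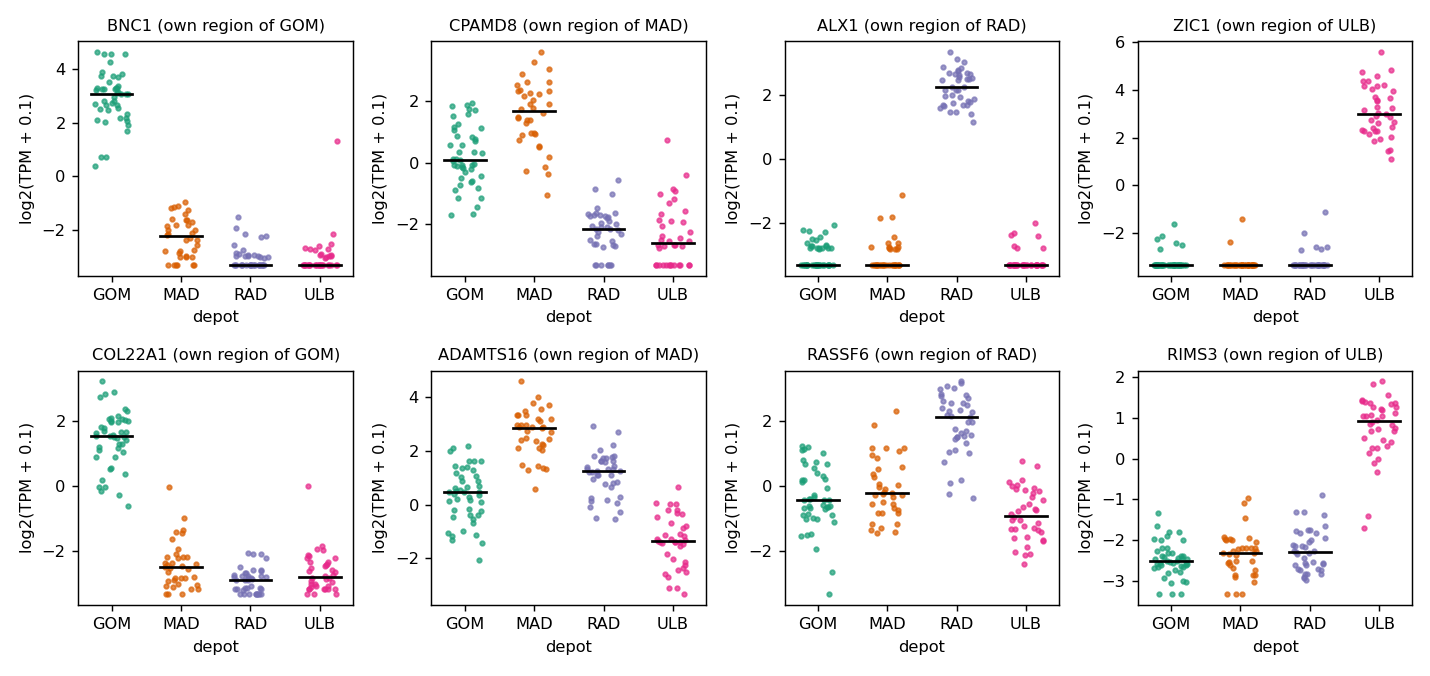
Expression of 8 genes near own regions, as log2(TPM + 0.1) in each WG library of GOM, MAD, RAD and ULB (1 point per library, bar at the median). ALX1 in RAD (2.12 to 10.1 TPM) and ZIC1 in ULB (2.08 to 47.6 TPM) stand clear of every library of the other depots, while CPAMD8 in MAD (0.386 to 12.0 TPM) overlaps GOM.

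The A-B index of Hi-C, positive in the open compartment A and negative in compartment B, was compared over 113298 bins of 20 kb in 46, 37, 40 and 39 WG libraries of GOM, MAD, RAD and ULB (limma, each AT against the mean of the other 3, called at an adjusted p below 0.05 and a difference above 0.75). Of 5796 bins with an own region of GOM, 909 (15.7%) were called higher in GOM, where 4.8% of all bins were, and 115 (1.98%) lower, where 4.31% of all were. In ULB 246 of 2343 (10.5%) were called higher, against 7.74%, and 33 (1.41%) lower, against 2.88%. After quantile normalization of the index between libraries these were 206 and 42, and the calls over all bins went from 8771 higher and 3267 lower to 4716 and 4455. In MAD 20 of 2407 bins (0.831%) were called higher, against 0.142%, and 5 (0.208%) lower, against 0.452%. In RAD 13 of 1318 (0.986%) were called higher, against 0.607%, and 14 (1.06%) lower, against 1.69%. Bins of regions of all 4 depots were in compartment A in 89.7% to 91.8% of cases, and 48.2% to 48.7% of all bins were. Of the bins with own regions of GOM 57.3% were in A in GOM and 52.3% to 53.2% in the other ATs.

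The strong own regions of GOM lay in bins of a higher index in GOM. At BNC1 7 of 8 bins were called higher, with a mean index of 0.36 in GOM and of -0.66, -0.69 and -0.58 in MAD, RAD and ULB. At WWC1 10 of 11 were called (0.96 against 0.05, -0.16 and -0.81), at LRP2 8 of 8 (0.74 against -0.44, -0.87 and -0.59), at ANKRD6 5 of 5 (2.42 against 0.56, 0.37 and -0.13), and at SV2B 5 of 5 (-0.08 against -1.41, -1.80 and -1.36). At the 5 highest-ranked own regions of MAD and of RAD 0 bins were called higher, and lower calls were not counted there. At the RAD region of NDUFB6, TOPORS and DDX58 the mean index was lower in RAD (3.07) than in GOM, MAD and ULB (4.03, 4.96 and 4.33). In ULB both bins of the region near FGF10 were called higher (-0.77, against -3.03, -2.72 and -2.08 in GOM, MAD and RAD), as were both at ADRA1A, and none at the 4 regions of high input. Over the gene body TBX15 had 7 of 7 bins called higher in ULB (-0.80 against -3.68, -3.12 and -2.59), and the bin of ZIC1 was called too, while ALX1 had none called in RAD.

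Own regions held less G and C than shared ones. The median share of G and C was 42.7% to 45.7% in own regions and 47.6% to 48.3% in regions of all 4 depots. Shared regions lay at start sites more often, and away from start sites the medians were closer, at 42.5% to 45.5% and 46.4% to 47.1%. In the central 1000 bp, AGATAA (the GATA motif, both strands) occurred in 47.5%, 49.4%, 42.4% and 42.1% of own regions of GOM, MAD, RAD and ULB, in 37.9% to 39.1% of regions of all 4 depots and in 40.2% of all regions of the 4 tables. TAATTA, which reads the same on both strands, occurred in 23.2% to 28.2% of own regions, 20.0% to 21.1% of regions of all 4 depots and 21.7% of all. Both motifs are rich in A and T, as the own regions are. TCCCNNGGG (the EBF motif, both strands) occurred in 15.6%, 12.8%, 18.6% and 18.97% of own regions of GOM, MAD, RAD and ULB, in 19.03% to 20.3% of regions of all 4 depots and in 18.9% of all. Away from start sites it was more common in own regions of RAD (18.7%) than in RAD regions of all 4 depots (17.6%), and less common in own regions of GOM, MAD and ULB. AGGTCA, the nuclear receptor core, was found in 50.3% of own regions of GOM and 50.9% of all regions. A match is a description of the letters and not a bound site.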

How the data were processed

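Tissue of 4 ATs of pigs was taken for H3K27ac ChIP-seq with input, total RNA-seq and in situ Hi-C. Per the submitters' processing notes, the authors aligned ChIP reads with BWA 0.7.15 and SAMtools 1.3.1 to Sscrofa11.1, called peaks with SICER and stitched them with ROSE. The deposited ROSE tables give each region's signal in the pooled H3K27ac and input reads, its rank and the super-enhancer mark, with no read totals, so the depth behind a region is unknown. The authors estimated transcript abundance with kallisto 0.43.0 and summed it by gene. The deposited tables hold estimated counts, which were rounded for the tests, and TPM. WG libraries held 3.34 to 22.8 M counts. The deposited A-B index is a score per 20-kb bin, from contact matrices that the authors normalized between samples with BNBC, and no depth per bin is given.

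Groups came from the labels. The tables of counts, TPM and the index each hold 9 columns that match no label, and these were not used here. Regions were compared in Python 3.11.15 (numpy 2.4.6, pandas 2.3.3) with RefSeq genes. Of 21280 genes with counts, 13048 matched a RefSeq gene on an autosome by symbol, and those that did not are left out of counts near regions. Genes above 0.5 TPM in at least 80% of the libraries of an AT were tested by the quasi-likelihood method of edgeR 4.0.16 after TMM scaling, and bins with limma 3.58.1 (R 4.3.3). Each AT was set against the mean of the other 3, and p-values were adjusted over all genes or bins. The scripts were tested on simulated data. Fitted fold changes of genes listed at 0 in many libraries depend on the prior count, and TPM is given for these.

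Named genes were the 10 shared loci with the lowest sums of ranks, the 5 highest-ranked own regions of each depot, list genes with regions in 1 depot, the HOX, subcutaneous and visceral lists, and, of genes near own regions, the 5 with the largest rise and the 3 with the largest fall. A gene that this rule names is not reported here. Regions away from start sites or without high input, and their genes (FGF10, ADRA1A, CXCL12, MYO5B, MAST4, C8H4orf22, MAP3K10, RRAGC, PKLR, CDK12 and neighbours), were chosen after their values were seen, as was the choice of the other listed genes given with values. The members and lists were chosen with earlier results of these data known. Lists named but not described further are adipokines, lipolysis, lipogenesis, insulin and glucose, and marker lists of other cell types, whose values are in the closing section.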

Additional observations from a re-analysis of the deposited data

How the results depend on the processing

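The alternative expression runs were checked gene by gene for the 32 genes named for the largest rise or fall near own regions. None of their fold changes changed its sign under any alternative run. Other named genes were not checked in this way. The order of depots did change with equal numbers of regions: RAD went from the fewest own regions (1090) to the most (2154), and the highest share of super-enhancers in all 4 depots from ULB (52.0%) to GOM (32.2%). Under the alternatives 74 counts and shares stayed within 1.5 times the main value, and 46 did not. With 50% of a region to be covered, own regions numbered 7009 in GOM, 3597 in MAD and 1859 in RAD, and regions of all 4 depots 5905, 5556 and 6000. With equal numbers of regions the own counts were 2147, 1022 and 2154, and the shares of super-enhancers marked in all 4 depots were 32.2% in GOM and 31.78% in ULB. The upper 50% by rank held 719, 175, 129 and 91 own regions in GOM, MAD, RAD and ULB. A flank of 50 kb gave 5372, 2653, 1715 and 2703 genes near own regions.

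At any fold change, 389 genes were called higher and 282 lower near own regions of GOM, 163 and 106 in MAD, 82 and 40 in RAD, and 228 and 195 in ULB. With no filter on low genes 243 were higher and 111 lower in GOM, and 27 higher and 19 lower in RAD. Another run used only the libraries whose titles match an H3K27ac library of the subgroup (7, 7, 11 and 2). From these fewer samples 143 were higher and 17 lower in GOM, 20 and 2 in MAD, 7 and 2 in RAD, and 14 and 1 in ULB. The shares of all tested genes called in these expression runs were not counted, so these counts alone show no excess near own regions. With the title-matched libraries DEPDC7, ROBO2, STMN4, GRIK5, SLIT1, NOX5 and MYO5B lost their calls in their depots. No other fitted value of the 32 genes checked changed its call under any alternative. At an index difference above 0.5, 1547 bins with own regions (26.7%) were higher in GOM, against 10.3% of all bins. Lower were 311 (5.37%), against 11.3%. In MAD 94 (3.91%) were higher, against 1.35%, and 29 (1.20%) lower, against 3.10%. In RAD 117 (8.88%) were higher, against 3.46%, and 22 (1.67%) lower, against 6.66%. In ULB 482 (20.6%) were higher, against 18.4%, and 146 (6.23%) lower, against 7.98%, so ULB stood near the share of all bins.

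With the replicate block, 188 genes were called higher and 57 lower near own regions of GOM, 3 bins lower in MAD in place of 5, and 14 bins higher and 12 lower in RAD in place of 13 and 14. The block changed no call of the 32 genes checked and no other count by over 1.5 times. Over expression, same-numbered libraries of 2 ATs had median correlations of 0.585 to 0.66, but only MAD and ULB had every pair above 0.1, with 1 or 2 pairs below it for each other 2 ATs, and the labels name no animals, so the numbers were not used as a block in the main tests. As a hint from the data that they may mark shared animals, 17 of 33 libraries (RAD and ULB) to 27 of 36 (GOM and MAD) correlated best with their own number. No paired analysis and no omission of a library was possible for the regions because each table is pooled.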

Other observations

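Further gene lists are given as counts of calls over all WG libraries (edgeR, adjusted p below 0.05 and fold change above 1.5). Of all 13906 tested genes, 6.26% were called higher and 3.77% lower in GOM, and 3.08% and 2.37% in MAD. In RAD the shares were 1.81% and 3.73%, and in ULB 5.47% and 7.21%. In lists this short, a count of 1 or 2 calls is not read as a result. Of 16 adipogenic transcription factor genes 1 was called higher and 2 lower in GOM, 1 higher in MAD, 1 lower in RAD and 1 higher in ULB. Of 13 genes of lipogenesis and triglyceride synthesis 3 were called lower in GOM, 2 higher and 1 lower in MAD, 1 higher in RAD, and 1 in each direction in ULB. Of 11 tested genes of lipolysis and its receptors 4 were called lower in ULB and 0 higher, while 2 were higher and 1 lower in GOM and in RAD, and 1 was higher in MAD. Of 8 tested adipokine genes 1 was called lower in GOM, 1 lower in MAD, 1 higher in RAD, and 1 in each direction in ULB. Of 7 genes of insulin and glucose handling 2 were called lower in GOM and 0 in the other ATs.

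Markers of other cells had these calls and summed levels, with the same shares of all tested genes as background. Of 9 tested lymphocyte markers 4 were called higher in MAD, 3 higher and 2 lower in GOM, 3 lower in RAD and 6 lower in ULB, and 1 MAD library reached 456 TPM against a MAD median of 38. Of 10 macrophage markers 2 were called higher in GOM, 1 lower in RAD and 2 lower in ULB. The median sum was 1488 TPM in GOM, against 926 to 1053 in the other ATs. Of 11 endothelial markers 1 was called higher in GOM and 1 in MAD, and 2 were lower in RAD and 1 in ULB, with median sums of 869 to 1088 TPM. Of 7 fat progenitor markers 2 were called higher and 1 lower in GOM, 2 higher in MAD, and 1 higher and 2 lower in ULB, with median sums of 1869 to 2498 TPM. Skeletal muscle markers had median sums of 3.56 to 4.68 TPM with a highest library of 99.8 TPM in RAD, pancreas and gut epithelium markers 1.86 to 4.29 TPM with a highest library of 45.8 TPM in MAD, and adrenal and kidney markers 29.7 to 40.6 TPM with a highest library of 265 TPM in MAD.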
